A study of Mus musculus with 19 samples.

Results

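N10 is 1 of 16 neuron clusters that the authors defined in the medial amygdala of the mouse, and its cells were taken from the deposited neuron table by the cluster name that each cell carries. It holds 147 of the 2444 cells of that table, or 6.01%, and the deposited table of all cells of the same 16 libraries has 20679. All genes were then read for the same cells in the table of all cells, where the authors placed all 147 in their neuron class. Single cells were captured by Drop-seq, in which each transcript is counted once by a unique molecular identifier (UMI) on a barcoded bead, after Act-Seq, a dissociation designed to limit transcription while tissue is being taken apart.

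All mice were male C57BL/6J, aged 8 or 9 weeks. The 16 libraries came from mice affected by seizures (2 libraries), mice stressed acutely by immobilization (4), mice exposed acutely to odors (4) and naive mice (6). The labels name neither the agent that caused the seizures, nor the odors, nor the number of mice in a library. No label places libraries of a group in separate animals, so the p-values speak only of the spread among libraries, part of which may be technical. The seizure 1, immobilization 2 and 3 and odor 1 and 2 libraries came from mice of 9 weeks, and all naive libraries from mice of 8 weeks. Per the labels, odor cells entered the authors' clustering without immediate early genes and were left out of their immediate early gene comparisons.

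Neurons of the medial amygdala are known as a mixture of GABA and glutamate cells. Glutamate cells load vesicles through transporters, of which Slc17a7 is typical of cortex, hippocampus and pallial amygdala, and Slc17a6 of hypothalamus and thalamus. GABA cells make the transmitter with the enzymes of Gad1 and Gad2 and load it through Slc32a1. The peptide cholecystokinin (Cck) is made by cortical and amygdalar glutamate cells and by a class of interneurons.

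N10 cells had a median of 2182 UMIs and 1245 genes, against a median of 2189 UMIs in the 2297 other cells of the neuron table. The range in N10 ran between 1133 and 21661 UMIs, and 3 cells above 10000 UMIs (1 each in seizure 1, immobilization 2 and naive 1) held 13.1% of all 417714 UMIs of the cluster. No cell barcode of N10 occurred in more than 1 library, and 20 barcodes did so among all cells. N10 cells were found in 13 of 16 libraries, with 5 or more in 9 of them (seizure 1, immobilization 1 and 2, odor 1 to 3, naive 1 to 3), and 53.1% of them came from 3 libraries.

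The label of neuron was borne out by 10 general neuron markers, which summed to 5930 UMIs per 1e6 UMIs (CPM) in N10, against 8095 CPM in the other neurons and 768 CPM in cells that the authors classed as astrocytes. Of these markers, 2 long noncoding RNAs, Meg3 (424 CPM in N10, 3032 CPM in the other neurons) and Snhg11 (120 CPM in N10, 1023 CPM in the other neurons), were below -1 on the log2 scale and none was above 1. The median log2 difference of the 10 markers was 0.17. Meg3 was concentrated in N12 (61706 CPM) and N9 (10547 CPM), and N10 ranked 6 of 16 clusters for it. The marker sum was likewise high in N12 (80761 CPM) and N9 (25180 CPM), and was 6261 CPM in N11. Snap25, a protein of the vesicle fusion machinery, had a UMI in 77.6% of N10 cells and in 6.03% of oligodendrocytes, with medians of 2182 and 2181 UMIs. Astrocyte RNA was also present: 15 astrocyte markers, none at 0, summed to 29920 CPM in N10 (range over 9 libraries 26575 to 34544), 38932 CPM in the other neurons and 67912 CPM in astrocytes. Among single other clusters the sum was taken only for N11 (26814 CPM), N9 (9828 CPM) and N12 (8144 CPM), all below N10. Apoe, a lipid carrier made by astrocytes, was at 14230 CPM in N10, 18722 CPM in the other neurons, 27869 CPM in astrocytes and 2906 CPM in microglia. The sum of 9 microglial markers was 869 CPM in N10 and 873 CPM in the other neurons. The 8 endothelial markers summed to 19.2 CPM in N10 and 73.6 CPM in the other neurons, with 3 (Cldn5, Pecam1 and Slco1a4) at 0 in N10. The 7 mural markers summed to 21.5 CPM in N10 and 41.4 CPM in the other neurons. Of these, 4 (Vtn, the pericyte gene Pdgfrb, Kcnj8 and Abcc9) were at 0 in N10. The part of astrocyte RNA in the differences given next was not tested.

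Slc17a7 and Cck were higher in N10 than in the other neurons as a whole, and Gad2 and Slc32a1 were lower. The clusters were made from the expression of these same cells, so differences between N10 and other clusters are descriptions without a test. Fold differences are log2((CPM + 10) / (CPM + 10)) of UMIs summed over the cells, and among 4458 genes with at least 20 UMIs in N10, or in the other neurons scaled to the UMIs of N10, 130 (2.92%) were above 1 and 62 (1.39%) below -1. The 25 leading genes are those with the largest such value among genes with a UMI in at least 20% of N10 cells.

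Slc17a7, the vesicular glutamate transporter typical of pallial neurons (GRCm38, chromosome 7, 45163949 to 45176142, plus strand), led this list. It was at 187 CPM in N10 (78 UMIs; exact Poisson 95% interval 148 to 233) and at 21.0 CPM in the other neurons, a log2 difference of 2.67. Over the 9 libraries with at least 5 N10 cells, its lowest, median and highest levels were 0, 175 and 294 CPM in N10, and 0, 15.2 and 45.3 CPM in the other neurons. N10 was the higher in 8 of 9 libraries, and the remaining library, odor 2, had no Slc17a7 UMI in either. A Slc17a7 UMI was found in 31.3% of N10 cells, 4.40% of the other neurons and 0.147% of oligodendrocytes. After thinning every cell to 1000 UMIs, the shares were 15.6% of N10 cells (exact binomial 95% interval 10.2 to 22.5), 5.76% of N11 cells (2.52 to 11.03) and 1.74% of all other neurons (1.25 to 2.36). No N10 cell was too shallow for thinning, while 239 oligodendrocytes were left out.

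The second glutamate transporter gene, Slc17a6, was not high in N10. Its level was 57.5 CPM in N10 and 87.3 CPM in the other neurons, and cluster N9 had 590 CPM. The transcription factor Neurod2, which acts in the maturation of forebrain glutamate neurons, was at 52.7 CPM in N10 and 11.9 CPM in the other neurons, with N11 above both at 68.9 CPM. Of the 46 N10 cells with a Slc17a7 UMI and the 20 with a Slc17a6 UMI, only 2 had both.

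GABA genes were low in N10. Gad2 had 26.3 CPM in N10 and 228 CPM in the other neurons, a log2 difference of -2.71, with lowest, median and highest library levels of 0, 12.8 and 63.9 CPM in N10 against 175, 221 and 276 CPM in the other neurons. These ranges did not overlap. Slc32a1, the vesicular GABA transporter, was at 21.5 CPM in N10 and 110.3 CPM in the other neurons, with no overlap either (0 to 63.9 CPM against 95.7 to 121 CPM). Gad1 was at 38.3 CPM in N10 and 93.7 CPM in the other neurons. Low levels were not particular to N10. In N9, N11 and N13 to N16, Gad2 lay between 7.27 CPM (N14) and 38.9 CPM (N11), and Gad1 between 27.4 CPM (N15) and 40.2 CPM (N13). In N1 to N8 and N12, Gad2 lay between 198 and 588 CPM. Of the 10 genes of the GABA list, 4 were measured on at least 20 UMIs, and 3 of these were below -1. At the depth of these cells a transmitter gene was often missed: 69 of 147 N10 cells (46.9%) had a UMI of none of Slc17a7, Slc17a6, Gad1, Gad2 and Slc32a1. A glutamate transporter UMI was seen in 64 cells, a GABA gene UMI in 30, and both in 16, whose median depth was 3324 UMIs against 2080 UMIs in the others. After thinning to 1000 UMIs, Gad2 was seen in 1.36% of N10 cells, 18.4% of the other neurons and 1.89% of oligodendrocytes, a share in N10 within counting error (0.165 to 4.83) of that in cells that should lack the gene. Without thinning, the shares for Gad2 were 6.803% of N10 cells and 4.07% of oligodendrocytes. The thinned shares of Gad1 (3.40% of N10 cells, 1.11 to 7.76; 0.610% of oligodendrocytes, 0.305 to 1.09) were above that level, while those of Slc32a1 (2.72% of N10 cells, 0.746 to 6.82; 0.388% of oligodendrocytes, 0.156 to 0.799) had intervals that overlapped.

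**Figure D1:**
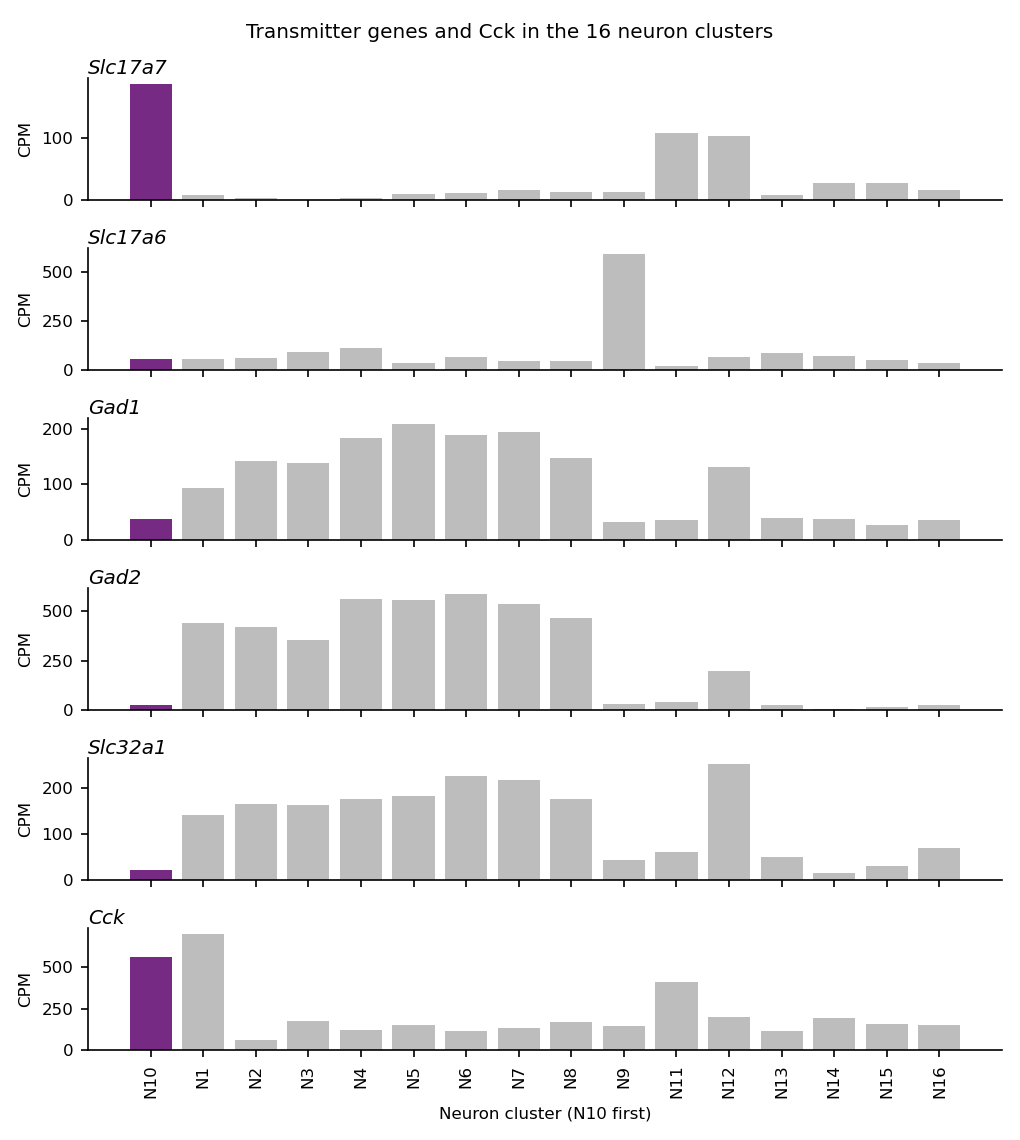
Levels (CPM, summed cells of a cluster) of 5 transmitter genes and Cck in N10 (purple) and the 15 other neuron clusters (grey). Slc17a7 is highest in N10 at 187 CPM, with N11 next, and Slc17a6 is highest in N9 at 590 CPM.

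Cck was the main peptide gene of N10. It was at 560 CPM in N10 (234 UMIs; 491 to 637) and 182 CPM in the other neurons, with library levels of 256, 612 and 832 CPM (lowest, median, highest) in N10 and 119, 200 and 238 CPM in the other neurons. The ranges did not overlap, and N10 was higher in 9 of 9 libraries. Cck had a UMI in 74.8% of N10 cells, 29.0% of the other neurons and 2.20% of oligodendrocytes. Among the clusters, N1 alone was above N10 (700 CPM), and N11 followed at 410 CPM. Scg2, a granin that is the source of the peptide secretoneurin, was at 311 CPM in N10 and 309 CPM in the other neurons.

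The peptides that mark other cells of the region were low. Sst (somatostatin) was at 14.4 CPM in N10, the lowest of the 16 clusters, and at 200 CPM in the other neurons, where N12 reached 1681 CPM. An Sst UMI was found in 18.4% of N12 cells, against 100% of N4 cells. Tac1 (substance P) was at 23.9 CPM in N10, also the lowest of the clusters, and at 83.5 CPM in the other neurons. Cartpt, the CART peptide, was at 23.9 CPM in N10 and 129 CPM in the other neurons, and Npy was at 23.9 CPM in N10 and 60.7 CPM in the other neurons. Avp (vasopressin) had 3 UMIs in N10, whereas its 1182 CPM in the other neurons came chiefly through N9, at 25585 CPM, and its median over libraries there was 8.24 CPM. Of 41 peptide genes looked for, 33 were in the table and 8 were measured on at least 20 UMIs, with 1 above 1 (Cck) and 5 below -1. Of 9 granin and processing genes, Pcsk2, a prohormone convertase, was above 1, with 110 CPM in N10 and 47.2 CPM in the other neurons, and none was below -1.

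Among 41 peptide receptor genes, 31 were in the table and 4 were measured on at least 20 UMIs. Trhr, the receptor of thyrotropin-releasing hormone, was at 93.4 CPM in N10 (39 UMIs in 29 cells) and 21.1 CPM in the other neurons, was highest in N10 of the 16 clusters, and was above the other neurons in 8 of 9 libraries. After thinning, its UMIs were seen in 7.48% of N10 cells, 2.39% of the other neurons and 0.111% of oligodendrocytes. Npy2r, a neuropeptide Y receptor, was at 47.9 CPM in N10 and 14.8 CPM in the other neurons, on 20 UMIs, and N10 was higher in 5 of 9 libraries. N11 alone was above N10 for Npy2r, at 53.9 CPM. Ntsr2, a neurotensin receptor known from astrocytes, was at 543 CPM in N10 and 994 CPM in the other neurons, in the same direction as the astrocyte marker sum given above. The PACAP receptor gene Adcyap1r1 was at 115 CPM in N10 and 166 CPM in the other neurons.

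Receptors of fast transmitters differed less. Of 38 glutamate and GABA receptor genes, 36 were in the table and 19 were measured on at least 20 UMIs; 1 was above 1, none below -1, and their median was 0.12, beside 0.05 over all genes measured. The gene above 1 was Gabra3, an alpha subunit of the GABA-A receptor, with 237 CPM in N10 and 84.3 CPM in the other neurons. The AMPA receptor subunit Gria1 was at 359 CPM in N10 and 537 CPM in the other neurons, lower in N10 in 9 of 9 libraries without passing the log2 limit of 1, and Gria2 was at 541 CPM in N10 and 495 CPM in the other neurons. Of 30 receptors of monoamines, acetylcholine and cannabinoids, 22 were in the table and only Adora1 reached 20 UMIs in N10 (64.6 CPM, against 82.8 CPM in the other neurons). Genes of cholinergic and monoamine cells were nearly absent from N10: the marker Slc5a7 had no UMI, and Th and Slc18a2 had none either.

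Several transcription factor genes were higher in N10. Bcl11b, a zinc finger factor of deep-layer cortical and of striatal neurons (chromosome 12, 107910403 to 108003602, minus strand), was at 318 CPM in N10 (133 UMIs; 267 to 377) and 58.1 CPM in the other neurons. Its library levels were 0, 245 and 449 CPM (lowest, median, highest) in N10 and 38.0, 48.0 and 99.3 CPM in the other neurons, with N10 higher in 7 of 9. Mef2c, a factor that controls synapse number in cortical neurons, was at 596 CPM in N10 and 177 CPM in the other neurons, and its ranges (256 to 754 CPM in N10, 110 to 231 CPM in the other neurons) did not overlap. Mef2c is also a microglial gene, with a UMI in 55.9% of microglia. The 9 microglial markers summed to 869 CPM in N10 and 873 CPM in the other neurons, and the part of microglial RNA in the Mef2c level was not tested. Bhlhe22 was at 98.2 CPM in N10 and 21.1 CPM in the other neurons, and Lhx9 at 50.3 CPM in N10 and 9.58 CPM in the other neurons. The Bhlhe22 level in N11 was close to that in N10, at 92.8 CPM. Zfhx3 went the other way, with 14.4 CPM in N10 and 56.7 CPM in the other neurons. In all, 17 of 54 regional transcription factor genes were measured on at least 20 UMIs, with 4 above 1 and 1 below -1. Thra, a thyroid hormone receptor, was at 1523 CPM in N10 and 888 CPM in the other neurons and was higher in N10 in 9 of 9 libraries. In N11 alone, Thra was above N10, at 1638 CPM. The glucocorticoid receptor gene Nr3c1 was at 180 CPM in N10 and 158 CPM in the other neurons.

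The remaining leading genes have varied roles. Adcy1, a calcium-stimulated adenylyl cyclase, was at 323 CPM in N10 and 66.3 CPM in the other neurons. Nptxr, the receptor that clusters AMPA receptors with pentraxins, was at 598 CPM in N10 and 138 CPM in the other neurons, and its partner Nptx1 at 122 CPM in N10 and 39.1 CPM in the other neurons. Olfm1, a secreted olfactomedin of neurons, was at 1791 CPM in N10 and 466 CPM in the other neurons, with ranges that did not overlap (831 to 2749 CPM in N10, 333 to 673 CPM in the other neurons). Ddn, a protein of the dendritic postsynapse, was at 735 CPM in N10 and 239 CPM in the other neurons. Crym, which binds thyroid hormone in the cytosol, was at 148 CPM in N10 and 32.4 CPM in the other neurons. Cx3cl1, the neuronal ligand of a microglial chemokine receptor, was at 144 CPM in N10 and 47.5 CPM in the other neurons. The others were C1ql3, Ptk2b, Ano3, Ypel1, 2010300C02Rik, Car10, Pcdh8, Akap5, Ak5, Erc2, Hpcal1, Fam131a and Cnksr2, with log2 differences between 1.41 and 1.86. Of the 20 genes listed as effectors of activity, 8 were measured on at least 20 UMIs, with 3 above 1 and none below -1. Nrn1, a surface protein that promotes neurite growth, was at 280 CPM in N10 and 107 CPM in the other neurons, and was higher in N10 in 9 of 9 libraries. Its level in N11 was about the same as in N10, at 281 CPM. The other members were Arc, with 74.2 CPM in N10 and 26.3 CPM in the other neurons, and the neurotrophin Bdnf, with 69.4 CPM in N10 and 27.1 CPM in the other neurons. Both pooled N10 levels leaned on seizure 1, which held 22 UMIs of Arc and 14 of Bdnf. No other library had more than 3 UMIs of Arc or 5 of Bdnf in N10. None of the 15 ion channel genes measured on at least 20 UMIs passed 1 in either direction. Of the 25 leading genes, 9 were higher in N10 than in the other neurons in all 9 libraries. The genes were chosen by their pooled levels in these same cells, so this count is no independent support. The share over all genes was not counted.

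**Figure D2:**
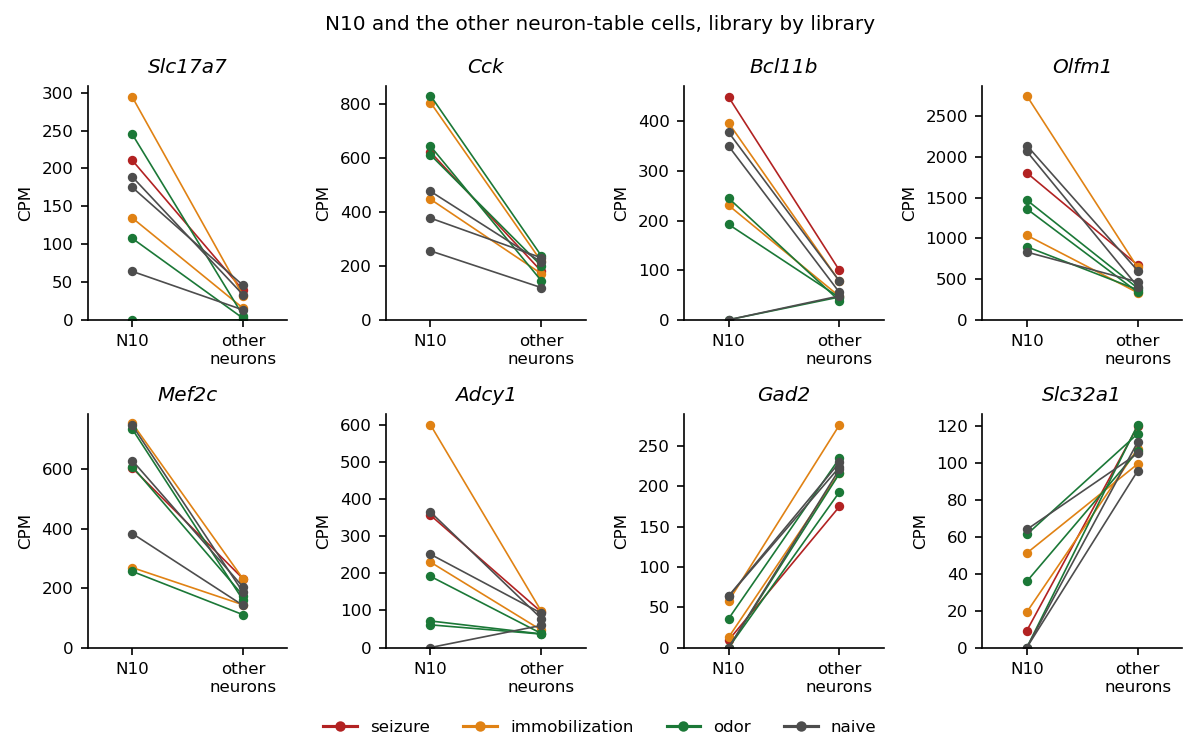
Levels (CPM) of 8 genes in N10 (left of each panel) and in the other cells of the neuron table (right), with a line for each of the 9 libraries that hold at least 5 N10 cells, coloured by group. Cck, Olfm1 and Mef2c lie higher, and Gad2 and Slc32a1 lower, in N10 in all 9 libraries, whereas Slc17a7, Bcl11b and Adcy1 are at 0 in N10 in at least 1 library.

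N11 resembled N10 most. Over the 3343 genes of the neuron table, log2(CPM + 10) of N10 correlated with that of N11 at Pearson's r = 0.970, followed by N14 (0.958) and N15 (0.958); this is a description across genes of clusters that share libraries. For 21 of the 25 leading genes N11 was the highest cluster other than N10, and 20 of the 25 were highest in N10. Only Cx3cl1 stood more than 1 above N11 on the log2 scale, with 144 CPM in N10 and 35.9 CPM in N11. Slc17a7 was at 187 CPM in N10 and 108 CPM in N11, and Ano3, an anoctamin, at 124 CPM in N10 and 59.9 CPM in N11. Levels of Adcy1 (323 and 320 CPM), Nptxr (598 and 596 CPM) and Mef2c (596 and 584 CPM) were close in N10 and N11. Among 4489 genes measured on at least 20 UMIs in N10 or N11, 89 were above 1 and 57 below -1. Those higher in N10 included Slc17a6, with 57.5 CPM in N10 and 21.0 CPM in N11. Those lower included Slc32a1 (21.5 CPM in N10, 59.9 CPM in N11), Sst (14.4 CPM in N10, 53.9 CPM in N11) and Kcnq3, a subunit of the M-current potassium channel (69.4 CPM in N10, 216 CPM in N11), which was named after its values were seen.

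**Figure D3:**
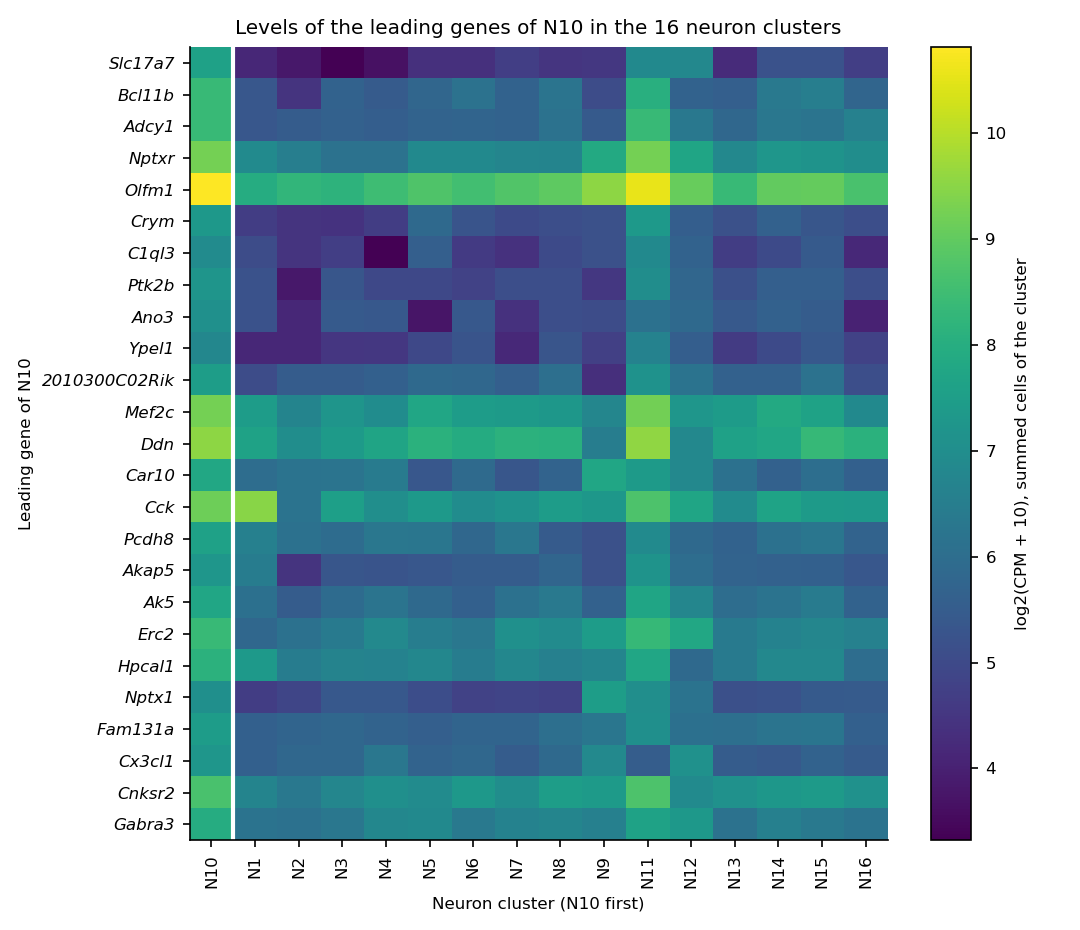
Levels of the 25 leading genes of N10, as log2(CPM + 10) of summed cells, in N10 (left of the white line) and the 15 other clusters. N11 is the other column that is high for most of the genes, and it is the highest other cluster for 21 of the 25.

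Within N10, cells with a Slc17a7 UMI (46, median 2732 UMIs) and without (101, median 1977 UMIs) differed in level as well as depth, and the part of depth was not tested. Bcl11b was at 474 CPM in cells with Slc17a7 and 178 CPM in cells without, Nptx1 at 207 CPM with and 45.6 CPM without, and Erc2, an active zone protein, at 464 CPM with and 192 CPM without. Cck went the other way, at 464 CPM in cells with Slc17a7 and 647 CPM in cells without, and Slc17a6 was at 15.1 CPM with and 95.8 CPM without. Gad2 (25.2 CPM with, 27.4 CPM without) and Snap25 (887 CPM with, 853 CPM without) were close.

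The share of N10 among neuron-table cells did not separate the groups. After seizure, N10 made up 8.82% of the 363 cells of seizure 1 (95% Wilson interval 6.31 to 12.2) and 1.43% of the 140 cells of seizure 2 (0.393 to 5.06), so the 2 libraries of this group differed beyond counting error. After immobilization the shares were 7.04%, 10.4% and 1.06% in libraries 1 to 3, and 2 of only 15 cells in library 4. After odor exposure they were 3.85%, 5.79% and 5.19% in libraries 1 to 3, with 0 of 5 cells in library 4. In naive mice they were 6.46%, 6.06%, 3.23% and 4.21% in libraries 1 to 4, with 0 of 10 and 0 of 5 cells in libraries 5 and 6, and 0 of 10 cells allows a share of up to 30.0%. Intervals and such limits cover counting error only.

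Over libraries with at least 20 neuron-table cells, seizure libraries averaged a share of 5.12% ± 5.22 (SD, n = 2). Immobilization libraries averaged 6.18% ± 4.75 (n = 3), odor libraries 4.94% ± 0.993 (n = 3) and naive libraries 4.99% ± 1.53 (n = 4). The differences from naive were 0.132, 1.19 and -0.0499 percentage points, smaller than the spread between libraries. Two-sided exact permutation tests over libraries gave p = 1.00 (seizure), 0.629 (immobilization) and 0.971 (odor), each 1.00 after Benjamini-Hochberg adjustment over the 3 comparisons, and the smallest p these designs allow is 0.0667 for seizure and 0.0286 for the others. Single libraries set the direction: the seizure difference was -3.56 points without seizure 1 and 3.83 points without seizure 2, and the immobilization difference was -0.937 points without immobilization 2. Over these 12 libraries the coefficient of variation of the share was 0.523 for N10, 0.205 for N11 and 0.662 for N12.

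**Figure D4:**
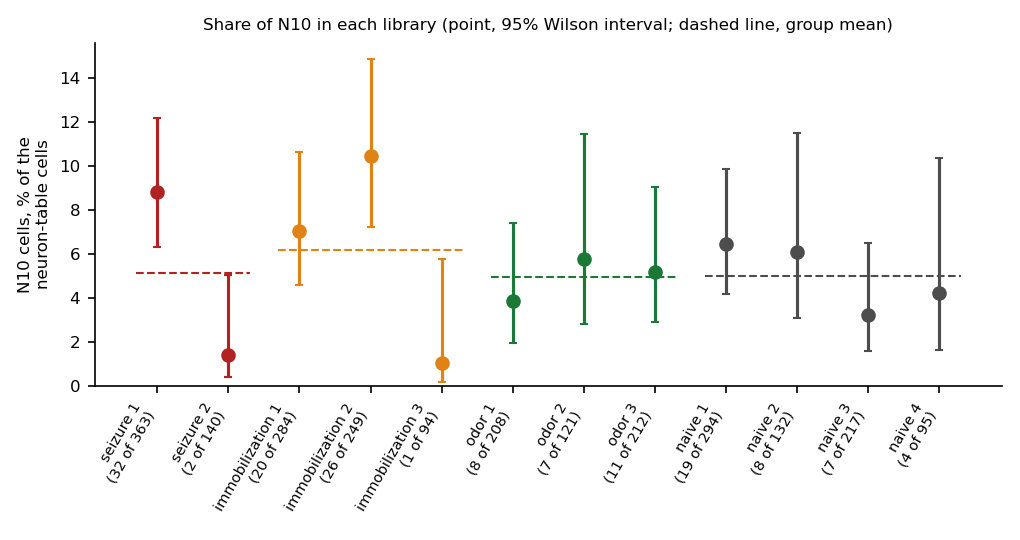
Share of N10 among the neuron-table cells (%) in the 12 libraries with at least 20 such cells, with 95% Wilson intervals, cell counts under each library and group means as dashed lines. Seizure 1 (8.82%) and seizure 2 (1.43%) lie on either side of the naive libraries, which sit between 3.23% and 6.46%.

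Few genes were called as changed within N10. UMIs were summed per library over N10 cells and tested with edgeR's quasi-likelihood test, with Benjamini-Hochberg adjustment over the 1129 genes that passed edgeR's filter on low counts; most receptors and immediate early genes did not pass it. After immobilization (libraries 1 and 2) against naive (libraries 1 to 3), 3 genes (0.266%) had an adjusted p under 0.05, and 38 had an unadjusted p under 0.05. After odor exposure (libraries 1 to 3) against the same naive libraries, 1 gene (0.0886%) did, and 70 at the unadjusted level. DESeq2 called no gene in either comparison (70 and 119 at an unadjusted p under 0.05). None of the 14 leading genes that could be tested was called, nor was any of the 12 astrocyte, 4 microglial or 4 oligodendrocyte markers tested, in either comparison. The 4 microglial markers had a median log2 change of 1.51 after odor exposure and 0.27 after immobilization, and the 4 oligodendrocyte markers 0.75 and -0.46. All 9 microglial markers summed to 2633, 2113 and 967 CPM in N10 of the odor libraries and 1191 and 563 CPM of the immobilization libraries, against 700, 315 and 1342 CPM of the naive libraries. The part of this RNA in the calls was not tested. The seizure group had only 1 library with 5 or more N10 cells and has no test here.

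Cck, the main peptide gene of the cluster, was at 807 and 448 CPM in N10 of the immobilization libraries, 612, 832 and 645 CPM in the odor libraries and 623 CPM in seizure 1, against 477, 378 and 256 CPM in the naive libraries. Its edgeR log2 changes did not pass, at 0.59 (SE 0.41, adjusted p = 0.999) after immobilization and 0.71 (SE 0.42, adjusted p = 0.875) after odor exposure. The odor and naive libraries did not overlap for Cck, but the share of all genes that separate so few libraries was not counted. Slc17a7 was too low to be tested, with 134 and 294 CPM in the immobilization libraries, 245, 0 and 107 CPM in the odor libraries and 211 CPM in seizure 1, against 175, 189 and 63.9 CPM in the naive libraries. These ranges overlapped.

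Pcp4, a small calmodulin regulator, was called as higher after immobilization among the fitted libraries. It was at 2305 and 1189 CPM in the immobilization libraries, against 811, 818 and 128 CPM in the naive libraries (edgeR log2 change 1.39, SE 0.32, adjusted p = 0.0075). The groups did not overlap among these fitted libraries only. In immobilization 3 (1 N10 cell), immobilization 4 (2) and naive 4 (4), which were not in the fit, Pcp4 was at 0, 186 and 335 CPM. In odor libraries it was at 1041, 1857 and 931 CPM (log2 change 0.87, adjusted p = 0.676). In the other neurons of the same libraries it was at 543 and 544 CPM after immobilization and 416, 708 and 380 CPM in naive mice. The immobilization call was lost without immobilization 1 (log2 change 0.81, adjusted p = 0.999) and without naive 3 (1.12, adjusted p = 0.397), and over all 13 alternatives the adjusted p ran between 0.000432 and 0.999.

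Rab3c, a GTPase of synaptic vesicles, was also called as higher after immobilization among the fitted libraries, but the call was lost in 9 of 13 alternatives. It was at 1556 and 524 CPM in the immobilization libraries, against 318, 378 and 256 CPM in the naive libraries (edgeR log2 change 1.66, SE 0.41, adjusted p = 0.0252). Immobilization 1 stood far above all others, with 81 UMIs in 16 of 20 cells, and naive 4, which with 4 N10 cells was not in the fit, was at 781 CPM. Without immobilization 1 the log2 change was 0.67 (adjusted p = 0.999). The call was also lost without naive 1 (adjusted p = 0.529), naive 2 (0.0656) or naive 3 (0.213), and the range over all 13 alternatives was 0.000593 to 0.999.

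Malat1, a nuclear long noncoding RNA, fell after immobilization and after odor exposure by the same test, but its naive value rested on 1 cell. It was at 634 and 857 CPM in the immobilization libraries and 367, 2177 and 537 CPM in the odor libraries, against 4706, 315 and 959 CPM in the naive libraries. The edgeR log2 change was -1.66 (SE 0.30, adjusted p = 7.41e-05) after immobilization and -1.35 (SE 0.30, adjusted p = 0.00835) after odor exposure, while the difference of means was smaller than the naive SD (1993 ± 2372 CPM, n = 3). Of the 296 Malat1 UMIs of naive 1, 232 came from the cell of 21661 UMIs. Without the 3 cells above 10000 UMIs, the log2 changes were -0.35 (adjusted p = 0.999) and -0.15 (adjusted p = 0.965), and without naive 1 they turned to 0.23 (adjusted p = 0.997) and 0.59 (adjusted p = 0.846). Over all alternatives the adjusted p ran between 5.67e-08 and 0.999 after immobilization, and between 2.4e-08 and 1.00 after odor exposure.

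Metallothionein and other genes that respond to glucocorticoids were not called, although their sums were higher in N10 of the immobilization and odor libraries tested than in the naive ones. The 16 genes of this list summed to 11659 and 9079 CPM in N10 after immobilization and 10471, 10565 and 8490 CPM after odor exposure, against 5994, 7676 and 6073 CPM in naive mice. The naive libraries overlapped with neither group, whereas the immobilization and odor libraries overlapped with each other. How often sums of other genes separate so few libraries was not counted. Seizure 1, at 7443 CPM, lay within the naive range, and seizure 2 (3526 CPM) and immobilization 4 (4454 CPM), each with 2 N10 cells, lay below it. Mt1, a metal-binding protein, made up most of the sum, with 8144 and 6112 CPM after immobilization and 8083, 7684 and 5911 CPM after odor exposure, against 4182, 5348 and 4475 CPM in naive mice. Its edgeR log2 changes of 0.63 (adjusted p = 0.404) and 0.59 (adjusted p = 0.676) did not pass. Mt1 is abundant in astrocytes as well, and in the other neurons it was at 8498 and 9183 CPM after immobilization, at 7753, 10569 and 9723 CPM after odor exposure, and at 5371, 7030 and 6443 CPM in naive mice. Of the 4 genes of the list that were tested (Klf9, Mt1, Mt2 and Tsc22d3), none was called in either comparison.

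Immediate early genes, which neurons transcribe within minutes of strong activity, were sparse in N10, and some of them were higher in seizure 1 than in naive libraries 1 to 3. Naive 4 had only 4 N10 cells, so that 1 UMI there makes 112 CPM. Fos had 14 UMIs in 6 of its 32 cells (128 CPM), against 0 UMIs in N10 of naive libraries 1 to 3 and 1 UMI (112 CPM) in naive 4, and 132 CPM in the other neurons of seizure 1. Egr1 was at 247 CPM in N10 of seizure 1, against 31.8, 0, 0 and 112 CPM in naive libraries 1 to 4, with 27 UMIs in 12 cells. The cell of 19715 UMIs held 10 of these and 5 of the Fos UMIs, and without it seizure 1 was at 190 CPM for Egr1 and 101 CPM for Fos. Arc, which acts in the trafficking of AMPA receptors, was at 201 CPM in N10 of seizure 1, against 47.7, 0, 0 and 223 CPM in naive libraries 1 to 4, and at 64.8 CPM in the other neurons of seizure 1. The value of naive 4, from 2 UMIs in 1 cell, was above that of seizure 1. Npas4 had 8 UMIs in 4 cells of seizure 1 and none in N10 of the naive libraries, and Junb 15 UMIs in 8 cells and none. In seizure 1 the cell of 19715 UMIs held 5 of the Npas4 UMIs, 6 of the Junb UMIs and 8 of the Arc UMIs. Without it, seizure 1 was at 33.5 CPM for Npas4, 101 CPM for Junb and 156 CPM for Arc. Jun and Homer1 did not stand out in seizure 1. Jun was at 137 CPM there, against 47.7, 126, 128 and 112 CPM in naive libraries 1 to 4, and at 153 CPM in immobilization 2. Homer1, a postsynaptic scaffold protein, was at 27.5 CPM in seizure 1, against 95.4, 0, 0 and 0 CPM in naive libraries 1 to 4, and at 184 CPM in odor 1. The 21 immediate early transcription factors summed to 1419 CPM in seizure 1 and 2170 CPM in the 2 cells of seizure 2, against 382, 629, 639 and 446 CPM in naive libraries 1 to 4. In the other neurons it was 892 CPM in seizure 1 and 1110 CPM in seizure 2, against 379, 379.6, 349 and 325 CPM in naive libraries 1 to 4. After immobilization the sum was 423 and 575 CPM in libraries 1 and 2, and after odor exposure 306, 384 and 430 CPM, within or below the naive range. With libraries of at least 2 N10 cells admitted, a choice made after seeing the data, edgeR called 0 of 395 genes after seizure (2 at an unadjusted p under 0.05). Fos, Egr1, Arc, Npas4 and Junb were too sparse to be among these 395 genes, so that fit cannot speak to them.

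**Figure D5:**
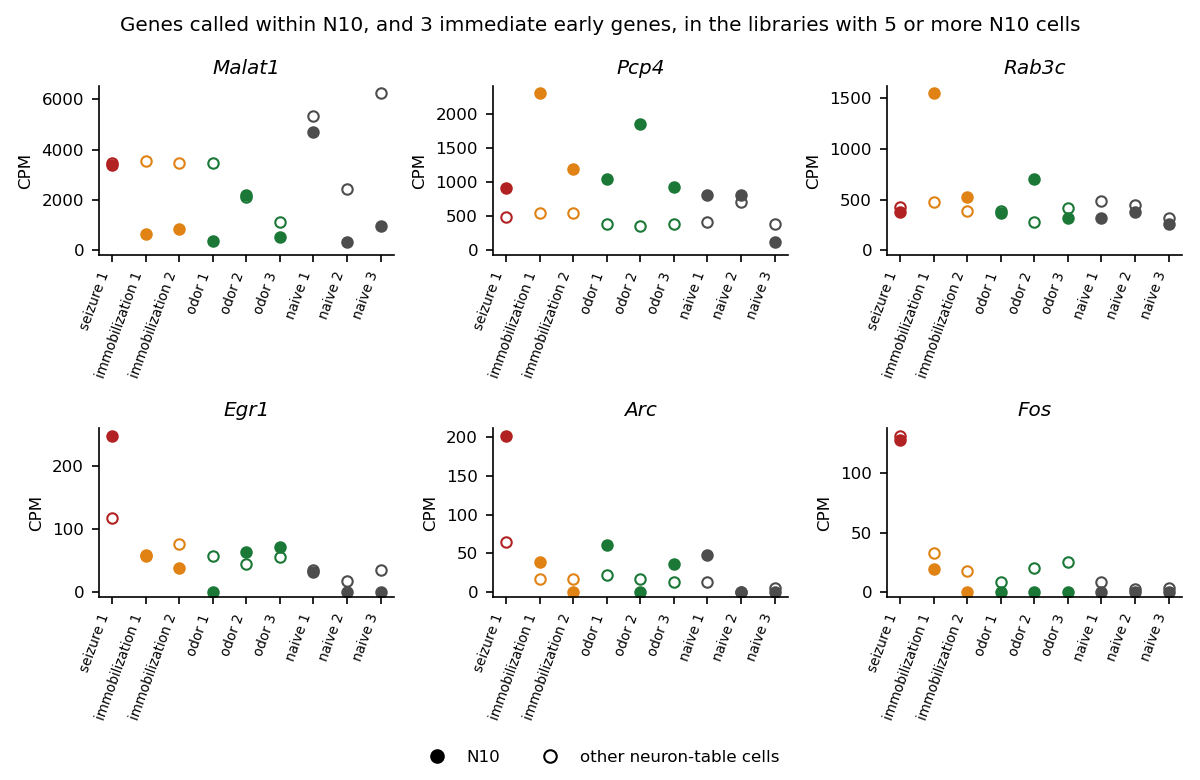
Levels (CPM) of Malat1, Pcp4 and Rab3c, the genes called within N10, and of the immediate early genes Egr1, Arc and Fos in the 9 libraries with at least 5 N10 cells (filled, N10; open, other neuron-table cells). Malat1 in N10 is high in seizure 1 and naive 1, Rab3c is highest in immobilization 1, and Fos is highest in seizure 1, at 128 CPM.

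Whether N10 responded otherwise than the rest of the neuron table was tested in a joint edgeR fit of N10 and other-neuron sums with library as a block, over the same 1129 genes. No gene (0%) was called as differing after immobilization and 39 had an unadjusted p under 0.05. After odor exposure 1 gene (0.0886%) was called, and 59 had an unadjusted p under 0.05. That gene was Meg3, a long noncoding RNA, with a log2 difference of responses of 2.32 (SE 0.53, adjusted p = 0.0429). In N10 it was at 429, 128 and 143 CPM in odor libraries and 700, 62.9 and 192 CPM in naive libraries. In the other neurons it was at 928, 916 and 187 CPM in odor libraries and 9491, 2568 and 1391 CPM in naive libraries. The value moved with the other neurons, where Meg3 was concentrated in N12 (61706 CPM), and N12 made up 2.88%, 4.96% and 0.472% of the odor libraries and 10.2%, 1.52% and 4.15% of the naive libraries. Its part in the result was not tested. The call was lost without odor 1, odor 3, naive 1 or naive 2, and the adjusted p over 10 alternatives ran between 0.00387 and 0.809.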

How the data were processed

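The authors deposited UMI counts as whole numbers for each gene in each cell. Of their tables, 2 were used; another, which names no clusters, was not. Per the submitters' processing notes, bcl2fastq 2.17.1.14, STAR 2.5.0a and the build mm10 are named without roles; the sources used here do not give how reads were counted or cells filtered. Counts of the 3343 genes in the neuron table were identical in the table of all cells, which has 16233. Cells were assigned by the library in their names. Counts were summed per library or cluster and scaled to CPM. N10 shares were compared over libraries by exact permutation (scipy 1.17.1). edgeR 4.0.16 (quasi-likelihood, TMM, filterByExpr; R 4.3.3) was fitted to N10 sums of libraries with at least 5 N10 cells, all 4 groups in 1 fit, with DESeq2 1.42.0 as an alternative, and was tested on simulated data. The interaction used the genes that passed the N10 filter, and its libraries also had at least 20 other neuron-table cells. No doublet caller was run, and whether the 3 N10 cells above 10000 UMIs are doublets was not tested. Coordinates are from GENCODE M21 (GRCm38, the assembly of mm10). Named genes were the 25 leading genes, up to 4 members of each list by level and those past 1 on the log2 scale, called genes and 12 response genes. The members, lists and tests were chosen with earlier results of these data known.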

Additional observations from a re-analysis of the deposited data

How the results depend on the processing

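Depth limits these results: N10 has 417714 UMIs in all, and 1129 of 16233 genes could be tested within it. For shares, no alternative brought any difference below an adjusted p of 0.05. With all libraries the differences were 1.795 points for seizure (0.132 in the report), 4.64 for immobilization (1.19) and 0.378 for odor (-0.0499), and as a share of clusters N1 to N12 they were 0.636, 1.87 and 0.232. Leaving out a library gave -3.56 to 3.83 points for seizure, -0.937 to 3.75 for immobilization and -0.638 to 0.497 for odor. Within N10, the 3 calls after immobilization and 1 after odor exposure became 1 and 0 with at least 3 N10 cells per library and 0 and 0 with DESeq2. Without a filter on low counts, immobilization had 1. Age as a covariate gave 2 for odor. Leaving out a library gave 1 to 4 for immobilization and 0 to 2 for odor. With libraries of at least 2 N10 cells both had 0, and without cells above 10000 UMIs, odor had 0; both choices were made after seeing the data. For the difference of responses between N10 and other neurons, leaving out a library gave 0 to 3 genes for immobilization and 0 to 1 for odor, and at least 2 N10 cells per library gave 0 for odor. With the replicate number as a block, the calls within N10 were 1 and 0. Deviations from group means of same-numbered libraries of different groups had r of -0.062 to 0.028 over 7 pairs. With 2 or 3 libraries per group and few N10 cells in most, these values cannot decide whether the numbers pair libraries. Leaving out a library gave log2 changes of Malat1 between -2.01 (without naive 2) and 0.23 (without naive 1) after immobilization, and between -2.35 (without odor 2) and 0.59 (without naive 1) after odor exposure. A minimum of 10 N10 cells was not run, since it leaves no comparison with 2 libraries on each side. Of the 25 leading genes, 21 remained against clusters N1 to N12 alone, 23 with a pseudocount of 1 CPM, 20 with libraries weighted equally, 20 without seizure 1 and 21 without cells above 10000 UMIs, and Slc17a7 led in each. The causes of these changes were not tested.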

Other observations

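Some genes of interest in the medial amygdala were too sparse in N10 to be described above, and they were chosen here after their values were seen. The estrogen receptor gene Esr1 was at 26.3 CPM in N10 (11 UMIs in 8 cells; exact Poisson 95% interval 13.1 to 47.1) and 7.30 CPM in the other neurons, the highest of the 16 clusters. The oxytocin receptor gene Oxtr was at 21.5 CPM in N10 (9 UMIs in 9 cells; 9.85 to 40.9) and 5.32 CPM in the other neurons, also the highest of the clusters. The peptide Trh was at 26.3 CPM in N10 (11 UMIs in 10 cells; 13.1 to 47.1) and 8.52 CPM in the other neurons. By library, Oxtr was above the other neurons in 3 of 9, and Esr1 and Trh in 5 of 9 each.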
